A study of Lupinus albus with 12 samples.

Results

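White lupin (Lupinus albus) roots that had spent 20 min in 10 mM sucrose were set against roots that had spent 10 min in it, gene by gene. The comparison asks what separates later from earlier exposure to sugar. A gene entered the comparison if 3 or more of the 6 libraries concerned gave it a value of 1 or higher, which 16697 of the 23427 genes in the table did. The plants were wild-type seedlings of the cultivar Amiga, grown hydroponically in Hoagland solution. Sucrose was added to that solution, and root pieces of a few centimetres that included the tip were frozen at each time. The series holds 3 libraries each for a control harvested at 0 min without sucrose and for 10, 15 and 20 min in it. Polyadenylated RNA was read as barcoded cDNA on Oxford Nanopore flow cells, and all libraries with the same replicate number shared a flow cell. The sample labels speak of 3 plants per replicate and the methods of the paper of 1 plant, so p-values measure the spread between these libraries, whatever number of plants stands behind each.

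Sucrose moves from shoot to root as fuel and also acts as a signal there. It alters root growth, interacts with hormones such as auxin, gibberellin and ethylene, and takes part in the response to phosphate and iron shortage. White lupin is known for cluster roots, dense bottle-brush-like tufts of short rootlets that release organic acids and free phosphate and iron from soil, and these can be induced by sugar supply. Transcripts that change within minutes of a stimulus often encode transcription factors, small proteins of hormone responses and secreted or wall proteins, so these families are followed below.

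Few genes separated the later from the earlier exposure, and nearly all of those were of low value. With the thresholds used in the study, 40 genes were higher at 20 min than at 10 min (0.24% of genes tested) and 23 were lower (0.138%). The thresholds were a size of at least 1.5 for the log2 FC together with an unadjusted p-value no larger than 0.05. The log2 FC is the difference between the mean log2(value + 1) of the 20 min and the 10 min libraries, from a limma fit to all 12 libraries without scaling between them. Disregarding the size of the difference, 379 genes had an unadjusted p-value that low (2.27%), of which 281 were higher and 98 lower at 20 min. Pairing the libraries by flow cell, as a replicate block, gave 565 such genes in the fit to 12 libraries and 840 in a fit to the 6 libraries alone. After Benjamini-Hochberg adjustment over all genes tested, 0 genes (0%) were at or below 0.05, and the lowest adjusted p-value in limma was 0.774. In the fits with the replicate block it was 0.553 (12 libraries) and 0.485 (6 libraries), so their larger counts are not read as more differences. All 3 libraries of 20 min lay above all 3 of 10 min for 356 genes (2.13%) and below them for 200 genes (1.2%). Leaving out any one of the 6 libraries gave 62 to 84 genes called higher and 25 to 52 called lower, so the counts depended on each library. Over all genes tested the median log2 FC was 0.04, and the middle of the distribution, from the 5th to the 95th percentile, ran from -0.67 to 0.82.

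The called genes are counted here against limits that matter for reading them. Of the 40 genes higher at 20 min, 31 had groups that did not overlap and 36 were higher in each of the 3 flow cells. Of the 23 lower genes, 17 had groups that did not overlap and 21 were lower in each flow cell. Over all genes tested, 6.98% were higher and 5.26% lower in each of the 3 flow cells. The calls were made on these same libraries and favour such genes, so these counts are no separate support. The mean value at 20 min of the 40 higher genes had a median of 6.0 and did not exceed 27.3. The mean value at 10 min of the 23 lower genes had a median of 5.0 and did not exceed 35.3. In 22 of the higher and 13 of the lower genes, no library of the 6 was above 10. For 13 of the higher genes every 10 min library was listed at 0, and for 7 of the lower genes every 20 min library was. Such genes passed the filter on low values through one group alone and so had to differ, and their log2 FC depends on the 1 that was added. Called genes with a single library above 0 in the lower group, such as Lalb_Chr07g0181311, also passed the filter through the other group alone. For each gene of either kind, a small p-value, lack of overlap or a call held without any one library is no separate support. Uncharacterized proteins made up 14 of the higher and 12 of the lower genes.

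**Figure D1:**
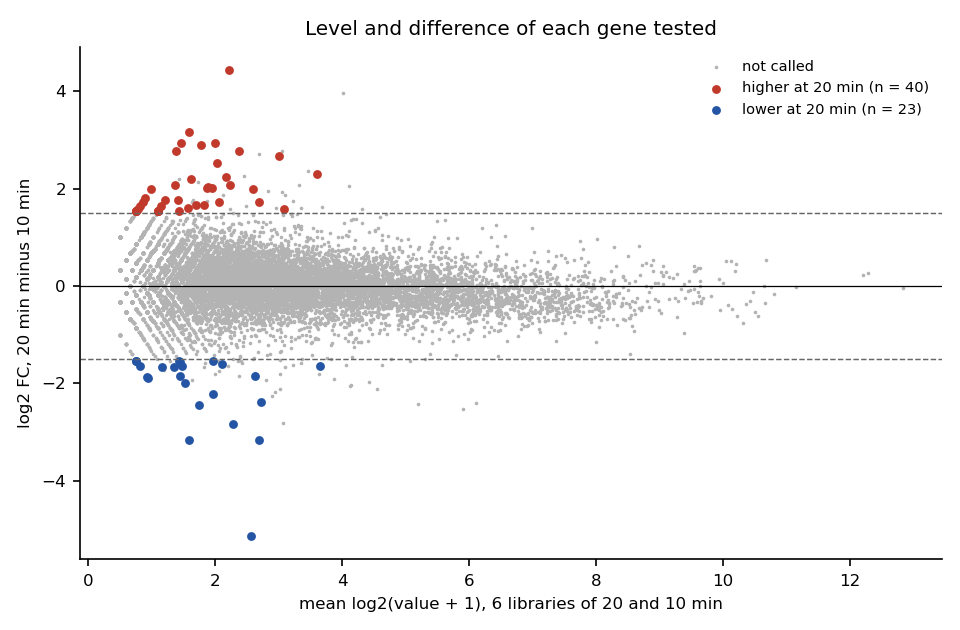
Each point is a gene tested, with its mean log2(value + 1) over the 6 libraries of 20 and 10 min on the horizontal axis and its log2 FC (20 min minus 10 min) on the vertical axis, and dashed lines at a log2 FC of 1.5 in either direction. The 40 genes called higher (red) and the 23 called lower (blue) lie at the low end of the horizontal axis, and none of the 2540 genes with a mean value of at least 20 was called.

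The libraries set limits too. Totals of the values ran between 303115 and 356992 per library at 20 min and between 311288 and 391998 at 10 min, with 16084 to 17143 genes above 0 at 20 min and 15603 to 16021 at 10 min. How many reads stand behind a value is unknown. Of 1034 genes with a value of 100 or more in any of the 6 libraries, 86 were nevertheless listed at 0 in at least 1 of them, so a 0 is given as listed and not as absence of the transcript. Names typical of roots (peroxidases, aquaporins, nitrate transporters, while no Casparian strip name was matched) took 1.99 to 2.72% of the total at 20 min and 1.64 to 2.31% at 10 min. Names of photosynthetic tissue took 0.0678 to 0.302% at 20 min and 0.061 to 0.165% at 10 min, those of nodules 0.029 to 0.938% at 20 min and 0.0226 to 0.648% at 10 min, and those of seeds 0.294 to 0.407% at 20 min and 0.356 to 0.432% at 10 min. Replicate 3 of 20 min stood apart in its ribosomal protein and histone genes, as described further on. In these bulk roots, fewer cells of a type and less RNA per cell cannot be told apart.

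The smallest unadjusted p-value among the called genes was that of an AP2-EREBP transcription factor, Lalb_Chr07g0181311, on chromosome 7 at 2268155 to 2269227 of CNRS_Lalb_1.0. Members of this family bind DNA at promoters of genes for ethylene, stress and developmental responses. Its value was 7, 5 and 16 in replicates 1, 2 and 3 at 20 min, against 0, 0 and 1 at 10 min. The groups did not overlap, with the lowest 20 min library at 5 and the highest 10 min library at 1. Control libraries were listed at 0, 0 and 0, and 15 min libraries at 2, 0 and 1, so 20 min was the only time at which every library carried it. The log2 FC was 2.89 ± 0.50 (SE) with an unadjusted p-value of 9.1e-05 and an adjusted p-value of 0.774 (limma). The log2 FC lay between 2.46 and 3.22 when each library in turn was left out, and the call held each time. With only 1 library of 10 min above 0, this gene passed the filter through the 20 min libraries alone, so this is no separate support. An exact two-sided permutation test gave 0.1, the smallest p-value that 3 against 3 libraries can give. The same p-value of 0.1 applies to every gene below whose groups do not overlap.

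Other transcription factors called higher had lower values or more spread. The Dof zinc finger gene Lalb_Chr18g0059761 (chromosome 18, 19429503 to 19430983) belongs to a plant-specific family of DNA-binding proteins. It had 4, 3 and 3 at 20 min, against 1, 0 and 0 at 10 min (log2 FC 1.77 ± 0.37, unadjusted p = 0.000496, limma), and the call held without any one library. The Dof gene too passed the filter through the 20 min libraries alone. The C2H2 zinc finger gene Lalb_Chr06g0171051 was at 32, 34 and 16 at 20 min, against 10, 2 and 4 at 10 min. Its groups did not overlap, but control libraries had 25, 0 and 5 and 15 min libraries 3, 16 and 27, which covered most of the range of both groups. Its log2 FC of 2.30 ± 1.04 (unadjusted p = 0.0479, limma) lost the call in 5 of the 6 fits that left out a library. Another C2H2 gene, Lalb_Chr01g0015931, rested on a single library, with 2, 4 and 61 at 20 min and 2, 0 and 2 at 10 min. Without replicate 3 of 20 min its log2 FC was 0.90. The MYB-HB-like gene Lalb_Chr06g0161101 had 3, 1 and 5 at 20 min and 0, 0 and 1 at 10 min (log2 FC 1.53 ± 0.58, unadjusted p = 0.0227, limma). Its groups touched, and it lost the call in 4 of the 6 fits.

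Genes of signalling and hormone responses were called higher at values close to the floor of the table. The small auxin-up RNA gene Lalb_Chr23g0266211 belongs to a family of short transcripts that auxin induces within minutes. It was at 2, 3 and 1 at 20 min and at 0, 0 and 0 at 10 min (log2 FC 1.53 ± 0.45, unadjusted p = 0.00519, limma), and the call was lost without replicate 2 of 20 min. A kinase of the mitogen-activated protein kinase kinase kinase class, Lalb_Chr19g0136011, which stands at the top of a phosphorylation cascade, had 6, 5 and 5 at 20 min and 3, 1 and 0 at 10 min. The log2 FC of this kinase was 1.66 ± 0.47 (unadjusted p = 0.00453, limma), and 1.16 without replicate 3 of 10 min, where the call was lost. Lalb_Chr04g0256131, named as a membrane-associated kinase regulator, had 4, 2 and 12 at 20 min and 0, 1 and 2 at 10 min, so that its groups touched.

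Secreted and wall-associated products were also among the higher genes. Lalb_Chr09g0331161 (chromosome 9, 7147830 to 7148372) encodes an arabinogalactan peptide, a short, heavily glycosylated protein of the cell surface. It was listed at 14, 2 and 9 at 20 min, against 0, 0 and 0 at 10 min, with 0, 0 and 2 at 15 min and 0, 0 and 3 in the control. The log2 FC was 2.94 ± 0.69 (unadjusted p = 0.00119, limma), and the call held without any one library. This gene passed the filter through the 20 min libraries alone and so had to differ. Lalb_Chr08g0238261, annotated only as a secreted protein, had 7, 12 and 12 at 20 min and 2, 0 and 0 at 10 min (log2 FC 2.94 ± 0.88, unadjusted p = 0.00592, limma). Its control libraries were at 2, 1 and 10, and thus reached into the range of 20 min. The nepenthesin Lalb_Chr03g0027841, an aspartic protease by name, had 2, 4 and 3 at 20 min and 1, 0 and 0 at 10 min, and lost its call in 3 of the 6 fits without a library. The lipid transfer protein gene Lalb_Chr04g0257621 was at 9, 5 and 1 at 20 min, against 2, 0 and 0 at 10 min, with overlapping groups.

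A pair of genes named ovule protein, a name taken over from sequence records that gives no function, had some of the higher values in this set. Lalb_Chr16g0386051 (chromosome 16, 6164371 to 6164896) stood at 15, 25 and 19 at 20 min and at 3, 1 and 3 at 10 min. All control libraries, at 8, 10 and 4, lay above all 10 min libraries, whereas the 15 min libraries, at 13, 2 and 8, overlapped them. Its log2 FC was 2.67 ± 0.56 (unadjusted p = 0.000491, limma), and between 2.34 and 2.84 when a library was left out. Lalb_Chr13g0302081 had 7, 16 and 6 at 20 min and 0, 4 and 0 at 10 min, and was listed at 0 in every library of the control and of 15 min (log2 FC 2.52 ± 0.57, unadjusted p = 0.000866, limma). The thioredoxin-like gene Lalb_Chr03g0032811, of a family that reduces disulfide bonds, had 2 in each 20 min library and 0 in each 10 min library, but 1, 2 and 2 in the control.

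The remaining higher genes named by the rule were a gene derived from a harbinger transposase, Lalb_Chr07g0180951, a histone H4, Lalb_Chr08g0235121, the small heat shock protein Lalb_Chr11g0069451 and 3 uncharacterized genes. The transposase-derived gene had 5, 4 and 4 at 20 min, against 1, 0 and 0 at 10 min, with 4, 3 and 13 already at 15 min. The histone H4 gene was at 1, 3 and 2 at 20 min, against 0, 0 and 0 at 10 min, in contrast to most histone genes below. The small heat shock protein gene, of a chaperone family, was at 2, 3 and 3 at 20 min, against 1, 0 and 0 at 10 min, and lost its call in 4 of the 6 fits without a library. The largest log2 FC of all called genes in this direction, 4.43 ± 1.51, belonged to the uncharacterized gene Lalb_Chr07g0179141, named after its values were seen. It had 13, 30 and 22 at 20 min and 0, 0 and 0 at 10 min, but 0, 69 and 0 at 15 min and 30, 12 and 0 in the control.

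**Figure D2:**
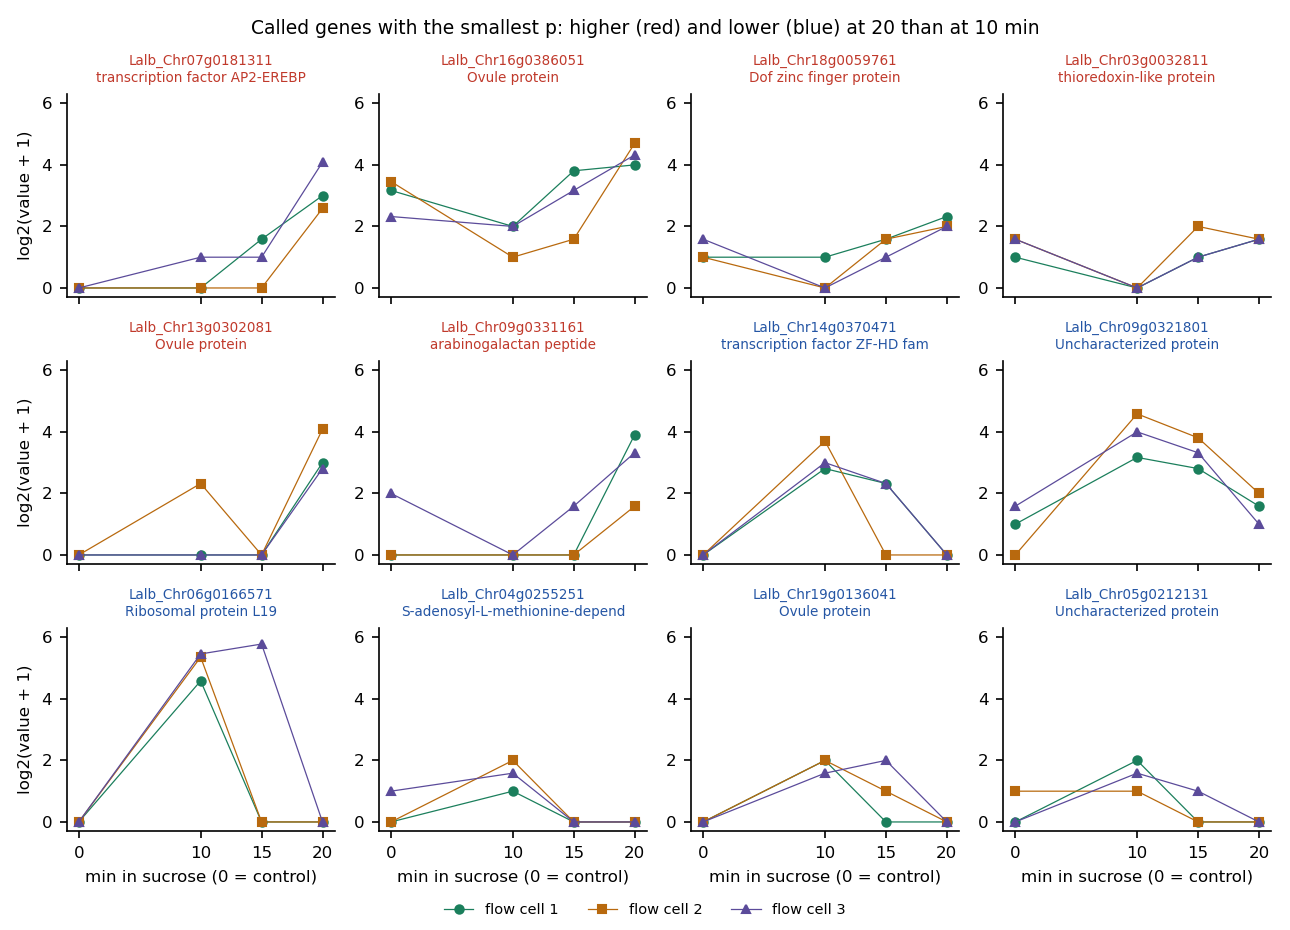
Values of the 6 higher (red titles) and 6 lower genes (blue titles) with the smallest p-values among called genes whose groups do not overlap, as log2(value + 1) against minutes in sucrose, with the control at 0. Symbols mark the flow cell, and lines join libraries of a flow cell, which are different plants. Lalb_Chr07g0181311 reached 7, 5 and 16 at 20 min, and Lalb_Chr14g0370471 was listed at 0 in every library at 20 min.

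Among the lower genes, which were chosen for values higher at 10 min than at 20 min, several had their highest values at 10 min and were near the control at 20 min. The control mean was nearer 20 min in 14 of the 23 lower genes and nearer 10 min in 9, and nothing is read from this. The zinc finger homeodomain transcription factor Lalb_Chr14g0370471 (chromosome 14, 11394290 to 11394790) comes from a plant family of developmental regulators. It was listed at 0, 0 and 0 at 20 min, against 6, 12 and 7 at 10 min. Libraries of 15 min had 4, 0 and 4, and control libraries 0, 0 and 0. The log2 FC was -3.17 ± 0.55 (unadjusted p = 9.27e-05, adjusted p = 0.774, limma), and between -3.35 and -2.90 without any one library. This gene passed the filter through the 10 min libraries alone and so had to differ. The uncharacterized gene Lalb_Chr09g0321801 (chromosome 9, 1195161 to 1195855) had 2, 3 and 1 at 20 min, against 8, 23 and 15 at 10 min. At 15 min it had 6, 13 and 9, and in the control 1, 0 and 2, so that in each flow cell the value was highest at 10 min and lower at each time after it. Its log2 FC was -2.39 ± 0.51 (unadjusted p = 0.000591, limma), and the call held without any one library.

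The ribosomal protein L19 gene Lalb_Chr06g0166571, a part of the large ribosomal subunit, had the largest log2 FC of the lower genes at -5.13 ± 1.17 (unadjusted p = 0.00092, limma). It was listed at 0, 0 and 0 at 20 min, against 23, 40 and 43 at 10 min, with 0, 0 and 54 at 15 min and 0, 0 and 0 in the control. The gene is short (chromosome 6, 3561299 to 3561554), and the next L19 gene, Lalb_Chr06g0166581, begins just after it at 3561710. That neighbour had 28, 37 and 24 at 20 min and 63, 43 and 8 at 10 min. Summed over the pair, values were 28, 37 and 24 at 20 min against 86, 83 and 51 at 10 min, a log2 FC of -1.26. Over all 9 L19 genes the sums were 436, 543 and 234 at 20 min against 543, 562 and 387 at 10 min, a log2 FC of -0.36. Where genes are alike in sequence, counting can divide reads between them. How alike these L19 genes are was not checked, so the value of the single gene is uncertain.

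Other lower genes had values in the single digits or large spread. The methyltransferase gene Lalb_Chr04g0255251 had 0, 0 and 0 at 20 min and 1, 3 and 2 at 10 min. The ovule protein gene Lalb_Chr19g0136041 had 0, 0 and 0 at 20 min and 3, 3 and 2 at 10 min, and 0, 0 and 0 in the control. A gene of the mitochondrial genome, Lalb_Chr00c21g0405481, uncharacterized and overlapping another annotated gene, was at 5, 0 and 0 at 20 min, against 21, 6 and 13 at 10 min. Its control libraries had 36, 9 and 62 and its 15 min libraries 42, 36 and 32, so for this gene the 20 min libraries stood apart from all other times. The NADH dehydrogenase gene Lalb_Chr25g0284051, of the respiratory chain by name, had 0, 2 and 3 at 20 min and 5, 4 and 9 at 10 min. Lalb_Chr13g0294171, a remorin, from a family of plasma membrane scaffold proteins, had 9, 0 and 0 at 20 min and 36, 15 and 11 at 10 min. The remorin was named after its values were seen, and its call was lost in 4 of the 6 fits that left out a library. The remaining genes named by the rule in this direction were 7 uncharacterized genes and the ovule protein gene Lalb_Chr23g0270601, with no value above 7.

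The 15 min and control libraries were not part of the comparison, and their position is given as a description. Because the called genes were chosen for a wide gap between 20 and 10 min, the mean of another group can be expected to fall inside it often, and nothing is read from that. The mean log2(value + 1) at 15 min was strictly between those of 20 and 10 min for 35 of the 40 higher and for 19 of the 23 lower genes. It was nearer 20 min in 17 and nearer 10 min in 22 of the higher genes, and nearer 20 min in 11 and nearer 10 min in 12 of the lower genes. The control mean was nearer 10 min than 20 min in 28 of the 40 higher genes, and nearer 20 min than 10 min in 14 of the 23 lower genes. For 5 genes in each direction, all control libraries were listed at 0. These positions were not tested.

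Genes of higher value gave no calls, although the size of their log2 FC reached 3.96. None of the 2540 genes with a mean value of at least 20 over the 6 libraries was called, and 6 of them (0.236%) had an unadjusted p-value no larger than 0.05, 4 higher and 2 lower. All 6 are described here, chosen after their values were seen. A SWEET gene, Lalb_Chr12g0202361, encodes a channel that lets sugars pass membranes in both directions. It had 37, 31 and 64 at 20 min, against 17, 22 and 8 at 10 min, with no overlap (log2 FC 1.47 ± 0.64, unadjusted p = 0.0418, limma). Its control libraries, at 28, 37 and 7, and its 15 min libraries, at 12, 39 and 33, spanned both groups. The C2H2 zinc finger gene Lalb_Chr09g0320921 had 29, 39 and 30 at 20 min and 22, 18 and 17 at 10 min (log2 FC 0.75 ± 0.33, unadjusted p = 0.0421, limma).

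The prohibitin Lalb_Chr03g0032011, a protein of the inner mitochondrial membrane, was at 44, 53 and 148 at 20 min and 40, 39 and 28 at 10 min, and most of its difference came from replicate 3 of 20 min. Without that library its log2 FC was 0.44. The uncharacterized gene Lalb_Chr23g0269151 had 30, 30 and 40 at 20 min and 8, 19 and 20 at 10 min. On the lower side, the histone H3 gene Lalb_Chr13g0296431, which packages DNA and is made mainly during DNA replication, had 27, 32 and 14 at 20 min and 46, 56 and 47 at 10 min (log2 FC -1.07 ± 0.39, unadjusted p = 0.0191, limma). The uncharacterized gene Lalb_Chr05g0216511 had 30, 55 and 27 at 20 min and 69, 91 and 76 at 10 min (log2 FC -1.12 ± 0.47, unadjusted p = 0.0338, limma).

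A pair of lipid transfer protein genes of chromosome 5, from a family that carries lipids in the cell wall, had high values that did not overlap between the times. Neither passed the thresholds. Lalb_Chr05g0225671 (9149581 to 9150484) had 724, 982 and 1242 at 20 min, against 1406, 1651 and 1373 at 10 min. Its 15 min libraries had 701, 1156 and 1106, and its control libraries 480, 429 and 493, below all libraries of the other times. The log2 FC was -0.62 ± 0.36 with a 95% interval from -1.41 to 0.18 (unadjusted p = 0.117, limma). The nearby gene of the same name, Lalb_Chr05g0225711 (9196941 to 9197739), was chosen after its values were seen. It had 893, 1231 and 1623 at 20 min and 1791, 2058 and 1753 at 10 min, also with a log2 FC of -0.62. The pair may share reads, which was not checked, so these genes are not counted as independent. Over the list of lipid transfer and bifunctional inhibitor proteins, 1 of 51 genes was called higher and 0 lower, with a median log2 FC of -0.12, against 0.04 over all genes tested. Without overlap, 3 genes of this list were lower and 0 higher, beside 1.2% and 2.13% of all genes tested. That count was not tested.

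Lists of genes are described by their counts, which have to be read against the shares called over all genes tested, 0.24% higher and 0.138% lower. At such shares, lists of this size hold few calls or none, so the counts say nothing particular about a family. Of 259 C2H2 zinc finger genes tested, 2 were called higher and 0 lower. Of 166 MYB genes 1 was called higher, and of 95 AP2/ERF genes 1. None was called in either direction among 129 bHLH, 53 WRKY and 44 NAC genes. The median log2 FC was 0.19 for MYB and for bHLH genes, 0.16 for C2H2 genes, 0.12 for WRKY and for NAC genes and 0.04 for AP2/ERF genes, against 0.04 over all genes tested. In the AP2/ERF list, Lalb_Chr07g0181311 stood alone on the higher side, and 2 genes had a low unadjusted p-value on the lower side. Of these, Lalb_Chr09g0320711 had 0, 0 and 0 at 20 min and 1, 1 and 2 at 10 min, and Lalb_Chr02g0156891 had 1, 0 and 0 at 20 min and 2, 2 and 2 at 10 min, too small in log2 FC (-1.19 and -1.25) to be called.

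Among the lists related to hormones, 1 of 49 small auxin-up RNA genes was called higher, and their median log2 FC was -0.05. None was called among 20 auxin response factors and auxin efflux carriers (median 0.33), 21 WAT1-related transporters (median 0.25), 21 genes of ethylene synthesis and signalling (median 0.16), 29 genes of the jasmonate pathway (median 0.06) and 15 gibberellin-regulated proteins (median -0.35). The ethylene-forming enzyme aminocyclopropanecarboxylate oxidase Lalb_Chr18g0056831 had 45, 80 and 401 at 20 min and 50, 73 and 49 at 10 min, so its log2 FC of 1.00 ± 0.64 (unadjusted p = 0.148, limma) came from replicate 3 of 20 min. Of 26 CLE and RALF genes, which encode secreted signalling peptides, none was called (median -0.26). The CLE gene Lalb_Chr05g0218731 had 4, 9 and 2 at 20 min, against 16, 7 and 32 at 10 min, with 17, 9 and 110 in the control (log2 FC -1.63 ± 0.90, unadjusted p = 0.0952, limma). The RALF gene Lalb_Chr07g0177711 had 20, 26 and 22 at 20 min and 31, 39 and 46 at 10 min (log2 FC -0.74 ± 0.49, unadjusted p = 0.159, limma). It was the only one of the 26 whose groups did not overlap. Over all genes tested, 1.2% were lower and 2.13% higher without overlap, so nothing is read from this single gene.

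Further lists covered genes that handle sugar, wall material and minerals. With the same low shares over all genes, none was called among 55 sugar transporters (median 0.13), 25 genes of sucrose and trehalose metabolism (median 0.33), 51 expansins and xyloglucan endotransglucosylases (median -0.07), 58 pectin-modifying enzymes (median 0.00), 45 class III peroxidases (median 0.04) and 27 aquaporins (median -0.06). The same holds for 79 phosphate starvation proteins (median 0.09), 17 proteins of iron homeostasis (median 0.05), 120 EF-hand proteins (median 0.06), 37 glutathione transferases (median 0.33), 23 cytochrome P450 proteins (median 0.27) and 20 defensins and pathogenesis-related proteins (median -0.40). No call was made among 3 calcium-dependent and SnRK kinases (median 0.52) and 6 leucine-rich repeat receptor kinases (median 0.17), lists that are too short to describe a family. Of 80 heat shock protein genes, 1 was called higher, with a median of 0.05. The trehalose-phosphate synthase Lalb_Chr09g0326411, which makes a phosphorylated trehalose that plants use as a signal of sugar status, was at 3, 3 and 3 at 20 min and 2, 2 and 1 at 10 min (log2 FC 0.61 ± 0.50, unadjusted p = 0.243, limma).

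**Figure D3:**
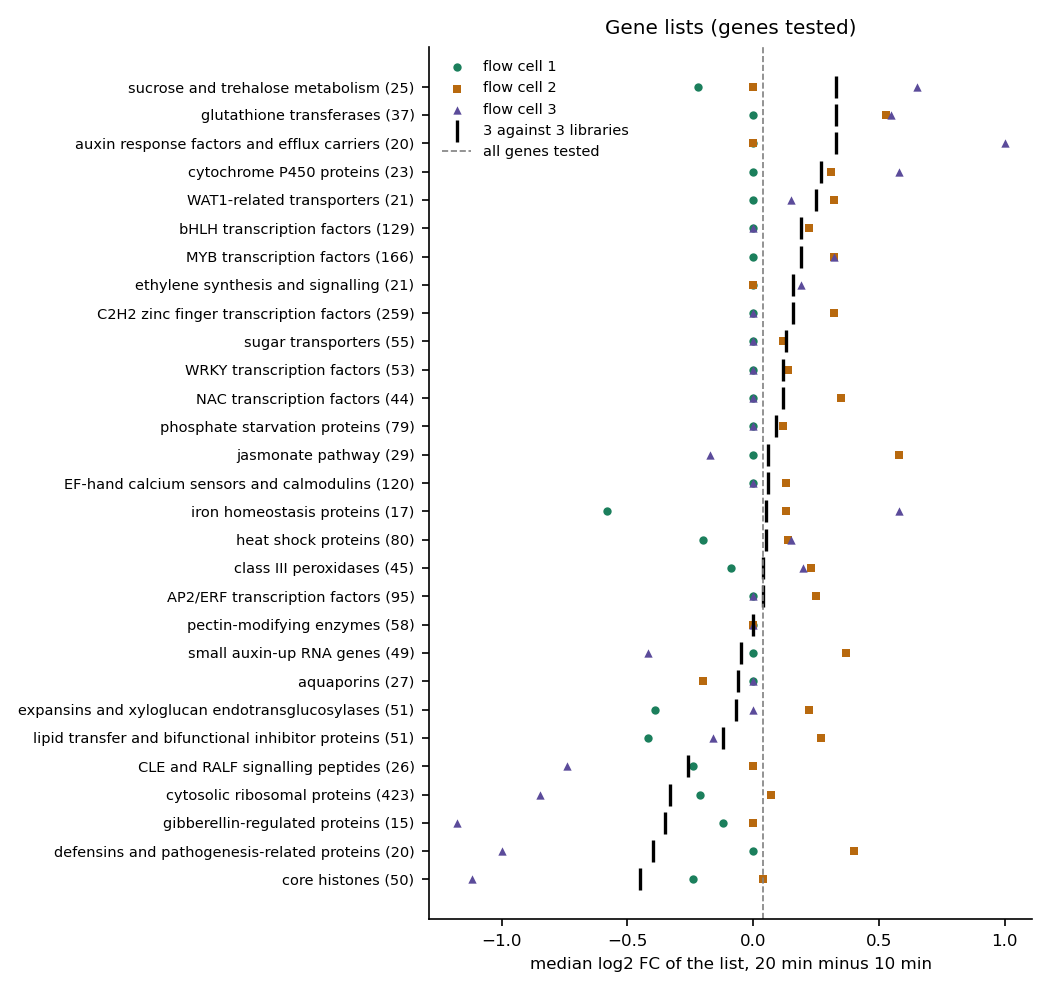
Median log2 FC (20 min minus 10 min) of each gene list with at least 15 genes tested, with the number of genes tested in parentheses, as a black bar, and the median of the difference within each flow cell as a symbol. The dashed line is the median of all genes tested (0.04). Ribosomal proteins and core histones lie lowest in flow cell 3, at -0.85 and -1.12, and at 0.07 and 0.04 in flow cell 2.

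Cytosolic ribosomal proteins and core histones were the most one-sided of the lists with at least 20 genes tested, and their difference was largest in flow cell 3. Of 423 ribosomal protein genes tested, 374 had a log2 FC below 0 and 47 above, with a median of -0.33, and 1 was called lower and 0 higher. Of 50 core histone genes, 47 were below 0 and 3 above, with a median of -0.45, and 1 was called higher and 0 lower. Within flow cells 1, 2 and 3, the median difference of ribosomal protein genes was -0.21, 0.07 and -0.85, and that of histones -0.24, 0.04 and -1.12. Without replicate 3 of 20 min, the median of ribosomal protein genes was 0.11 and that of histones -0.14. The median over all genes tested was 0.10 in the same fit, so ribosomal protein genes were no longer below it, while histones still were. This fit kept the partner of that library in flow cell 3, replicate 3 of 10 min.

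As a share of the total, both lists were lower at 20 min than at 10 min in all 3 flow cells. Ribosomal protein genes took 16.2, 17.2 and 7.96% of the library total in replicates 1, 2 and 3 of 20 min, against 16.8, 18.9 and 10.8% at 10 min. Replicate 3 was the lowest at both times. The summed values behind these shares were 48962, 61562 and 27041 at 20 min, against 56387, 58764 and 42368 at 10 min, higher at 20 min in flow cell 2. Core histones took 1.81, 2.11 and 0.976% at 20 min, against 2.03, 2.33 and 1.96% at 10 min. The 40S ribosomal protein S30 gene Lalb_Chr05g0214471 had 1055, 1043 and 535 at 20 min and 1264, 1073 and 1198 at 10 min. A histone H3 gene, Lalb_Chr09g0327881, had 78, 93 and 30 at 20 min and 123, 123 and 96 at 10 min (log2 FC -0.90 ± 0.46, unadjusted p = 0.0776, limma). The S30 and H3 genes were chosen after their values were seen. Without overlap, 10 of 423 ribosomal protein genes were lower and 0 higher, and 5 of 50 histone genes were lower and 1 higher. Over all genes tested, 1.2% were lower and 2.13% higher without overlap. Without replicate 3 of 20 min, the median of defensins and pathogenesis-related proteins was 0.05 and that of gibberellin-regulated proteins 0.12, against 0.10 over all genes tested. The median of CLE and RALF genes was -0.20 and that of lipid transfer and bifunctional inhibitor proteins -0.15 without it, so these lists stayed below 0. The part of this library in these differences, beyond the values given, was not tested.

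**Figure D4:**
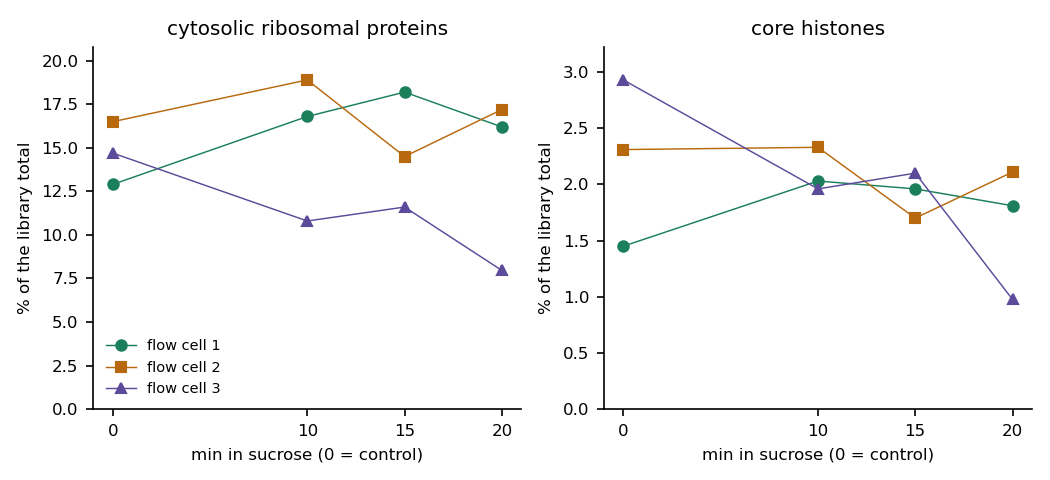
Percentage of each library's total in cytosolic ribosomal protein genes (left) and core histone genes (right), against minutes in sucrose with the control at 0, with a symbol for each flow cell and lines joining its libraries. Replicate 3 of 20 min is the lowest point of either panel, at 7.96% and 0.976%.

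The study lists 17 genes from its comparisons of the sucrose times with the control, and these hold most of the families it discusses. All 17 were tested and 0 were called between 20 and 10 min. The lowest unadjusted p-value among them was 0.188 (limma). The median log2 FC of the 17 genes was -0.33, against 0.04 over all genes tested, with 12 below 0 and 5 above. Within flow cells 1, 2 and 3 their medians were -0.28, -0.27 and -0.09. The list was chosen on these same libraries, in comparisons that use both the 20 min and the 10 min libraries. Its median ran from -0.62 to 0.02 when a library was left out, the latter without replicate 2 of 10 min. A p-value above the threshold does not show equal levels, because the 95% intervals were between 2.03 and 4.89 wide on the log2 scale, and in 2 of the genes alone did they stay within 1.5 of 0.

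A pair of bHLH transcription factors in that list, DNA-binding regulators of growth and nutrient responses, differed in their values. Lalb_Chr02g0158971 (chromosome 2, 16654006 to 16654802) had 13, 39 and 12 at 20 min and 16, 36 and 10 at 10 min (log2 FC 0.02, 95% interval -1.33 to 1.38). Flow cell 2 was highest at both times for this gene. Lalb_Chr17g0347051 (chromosome 17, 13843275 to 13844753) had 5, 5 and 18 at 20 min and 4, 3 and 5 at 10 min, higher in each flow cell. Its log2 FC was 0.84 ± 0.62 (unadjusted p = 0.200, limma), and the p-value was 0.0492 in the fit with a replicate block, which compares libraries of the same flow cell.

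Of the auxin-related genes in the list, the small auxin-up RNA gene Lalb_Chr03g0025221 had 4, 6 and 4 at 20 min, against 7, 9 and 7 at 10 min. Its groups did not overlap, and its log2 FC was -0.62 ± 0.61 (unadjusted p = 0.329, limma). This was the only such case among the 17 genes. Over all genes tested, 1.2% were lower and 2.13% higher without overlap, so nothing is read from it. The WAT1-related gene Lalb_Chr22g0353301, of a family that includes a vacuolar auxin exporter in Arabidopsis, had 1, 8 and 4 at 20 min and 6, 15 and 4 at 10 min, the lowest log2 FC of the list at -0.88 ± 0.63. Gibberellin-regulated proteins are small cysteine-rich peptides. One of them, Lalb_Chr08g0235731, had 196, 274 and 89 at 20 min and 185, 276 and 148 at 10 min (log2 FC -0.22 ± 0.99), and another, Lalb_Chr02g0159351, had 93, 131 and 62 at 20 min and 122, 195 and 66 at 10 min (log2 FC -0.35 ± 0.82).

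Lalb_Chr20g0109071, named for a codeine demethylase of opium poppy and thus an oxoglutarate-dependent dioxygenase by name, had the highest log2 FC of the list at 1.19 ± 1.12. It had 150, 465 and 101 at 20 min and 39, 102 and 145 at 10 min, higher in flow cells 1 and 2 and lower in flow cell 3. The wall-loosening expansin Lalb_Chr03g0033521 had 4, 11 and 5 at 20 min and 6, 16 and 5 at 10 min, and the xyloglucan endotransglucosylase Lalb_Chr16g0392421 had 8, 11 and 9 at 20 min and 12, 18 and 7 at 10 min. The defensin Lalb_Chr08g0237751, a small antimicrobial peptide, had 80, 92 and 10 at 20 min and 73, 111 and 22 at 10 min. The expansin, xyloglucan endotransglucosylase and defensin values overlapped between the times.

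**Figure D5:**
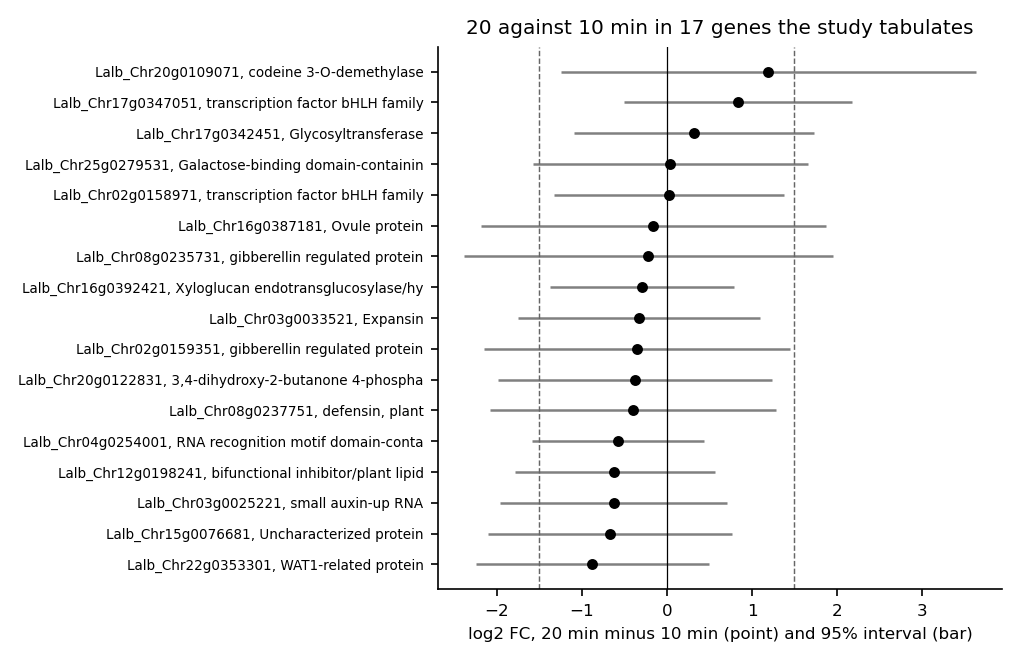
The log2 FC (20 min minus 10 min, point) and its 95% interval (bar) for the 17 genes the study tabulates, with dashed lines at 1.5 in either direction. Every interval includes 0, and the points run from -0.88 to 1.19.

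Apart from those 17 genes, 6 more that are mentioned by identifier were looked up, of which 5 were tested. Lalb_Chr19g0140251, an uncharacterized gene, was listed at 0 in all 6 libraries of 20 and 10 min and at 11, 8 and 28 in the control. The peroxidase Lalb_Chr02g0143031 had 3, 3 and 3 at 20 min and 3, 6 and 8 at 10 min. The genes used in the study as references for quantitative PCR, the histone H2A gene Lalb_Chr11g0072021 and the proteasome gene Lalb_Chr08g0243601, had a log2 FC of -0.20 ± 0.40 and 0.06 ± 0.42 (limma). The H2A gene had 24, 42 and 17 at 20 min and 34, 30 and 26 at 10 min, and the proteasome gene 2, 4 and 2 at 20 min and 4, 3 and 1 at 10 min.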

How the data were processed

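Nanopore reads were processed by the authors with Pychopper (orientation, trimming), Minimap2 (mapping to the CNRS_Lalb_1.0 genome), StringTie (assembly) and Salmon (counting). The deposited values carry the name CPM but are whole numbers (100.0% of values, exactly) with unequal totals, so they were used as a score, and the reads behind them are unknown. The authors' own DESeq2 table (mean level, log2 fold change, standard error, statistic and p-values for each time against the control) was not used.

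Genes reaching 1 in 3 or more of the 6 libraries were fitted on the log2(value + 1) scale by limma (version 3.58.1, R 4.3.3, variance trend, 12 libraries in 4 groups, two-sided, Benjamini-Hochberg adjustment over all genes tested). The procedure was tried on simulated data that had no flow cell effect and no differences in genes of the lowest values. That trial does not speak for calls at such values. Tables were made in Python 3.11.15. A group listed at 0 throughout adds no spread, so p-values may be too small. The replicate number names the flow cell. After centring on group means, 20 and 10 min libraries of the same number correlated at 0.279, 0.263 and 0.454. Between replicates 1 and 2 the correlations were 0.266 and 0.203, and between replicate 3 and the others they ran from -0.365 to -0.315. Only replicate 3 thus stood apart, and these values do not show pairing in flow cells 1 and 2. The main fit had no flow cell term, and a fit with this replicate block was an alternative. Other constants, scalings, filters, the 6 libraries alone, no trend and leaving out each library were tried too.

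Names are those of UniProt in the deposited table. All 23427 identifiers were found in the annotation. The genes named by the rule are the 15 with the smallest p-values in each direction among called genes without overlap, up to 2 per list and direction by the same criteria, and genes the study gives by identifier. All other genes named in the text, called or not, were added after their values were seen. Lists were picked by words in protein names, and 4 were narrowed after the matched names were seen. The members and lists were chosen with earlier results of these data known.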

Additional observations from a re-analysis of the deposited data

How the results depend on the processing

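The counts of called genes depended on how low values were treated. With 0.5 added in place of 1, 174 genes were higher and 67 lower, and with 5 added 3 and 2. A filter of higher values left 12 higher and 7 lower, 41 genes at an unadjusted p-value no larger than 0.05 and a median log2 FC of -0.03. A limit at a mean of 20, chosen after seeing the data, left 0 and 0. Scaling to the median total gave 41 higher and 15 lower, so that 73.2% of calls were higher, against 63.5% without scaling, and median-of-ratios scaling gave 28 and 17. With 1 library left out, between 62 and 84 genes were higher and between 25 and 52 lower, and the median over all genes tested lay between 0.00 and 0.10. Of the 63 called genes, 39 to 49 kept their call in these fits, and 14 of the higher and 6 of the lower genes kept it in every one. With the replicate block, 49 genes were higher and 28 lower, and 62 of the 63 called genes kept their call. The exception was Lalb_Chr16g0390451 (unadjusted p = 0.0516, limma). In the 6 libraries alone with this block, 840 genes had an unadjusted p-value no larger than 0.05. No alternative turned the direction of a called gene, and none gave a gene at an adjusted p-value of 0.05 or less. The lowest adjusted p-value of any alternative was 0.068, in the 6 libraries alone. The cause of these shifts was not tested.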
